A study of Mus musculus with 6 samples.

Results

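Oligodendrocytes, the cells that wrap axons of the central nervous system in myelin, were followed here through 28 genes that mark successive stages of their lineage. The genes were taken by symbol from a table of 33274 gene rows. Each of the 28 had 1 row, and all 28 passed the filter on low counts that left 18327 genes for testing. They comprised 6 genes of precursor cells, 3 transcription factors expressed across the lineage, 5 genes of committed and newly formed cells, and 14 genes of mature, myelinating cells. RNA came from the cerebral cortex of wild type females of the outbred ICR stock, aged 6 weeks. The 3 mice of the saline lineage were grandoffspring of males given saline (10 mL/kg), and the 3 mice of the methylphenidate lineage were grandoffspring of males given methylphenidate (15 mg/kg), a blocker of dopamine and noradrenaline reuptake, under the skin on 21 consecutive days. The dosed males and then 1 of their sons per litter were mated with undosed females, so the mice sequenced had received neither agent. The comparison asked whether these genes differed in the cortex with the treatment of the grandsire.

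Precursor cells, which carry the PDGF receptor alpha on their surface, persist in the adult cortex, divide, and supply new oligodendrocytes. On leaving the cycle they pass through a short committed stage marked by Gpr17, switch on Myrf, and then express the proteins and lipid enzymes of the myelin sheath. Each stage therefore has its own genes, and precursor genes fall as myelin genes rise within a cell.

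Total counts per library were 23896752 to 28120640, and the 28 genes together took 0.479 to 0.639% of them. The 11 listed markers of cortical excitatory neurons summed to 5079 to 5341 CPM with saline and 4961 to 5552 CPM with methylphenidate. CPM are counts scaled to TMM-adjusted library size. Markers of the labelled tissue were thus present in every library. The fitted values of these 11 genes had a median log2 fold change of -0.27, with 8 below 0 and 3 above, and 0 passed the threshold. Without overlap, 4 were lower and 1 higher, where 6.51% of all tested genes were so lower and 6.97% so higher. At an unadjusted p under 0.05 (edgeR quasi-likelihood test) there were 7 of the 11, where 7.51% of all tested genes were under that value. A list of 9 general neuronal genes had centred means of 0.11, 0.05 and 0.01 with saline and -0.04, -0.05 and -0.09 with methylphenidate, which do not overlap. Values of single libraries are given in the order of replicates 1 to 3 throughout, and saline and methylphenidate name the lineage. A list of 12 genes of striatal projection neurons, which lie beneath the cortex, summed to 259 to 360 CPM in saline libraries and 356 to 848 CPM in methylphenidate libraries. Its mean log2 CPM, centred on each gene, was -0.19, -0.84 and -1.01 with saline and 0.82, -0.04 and 1.27 with methylphenidate, so the lineages did not overlap in this mean, while the summed levels did overlap. In whole tissue, fewer cells of a type and less RNA per cell cannot be told apart.

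The start-site regions below show the regulatory sequence of genes from the stages at either end of the lineage. RefSeq windows on GRCm38.p6, trimmed to the 250 bases before the start, were found for 20 of the 28 genes. None was used for C1ql1, Olig1, Sox10, Gpr17, Myrf, Mbp, Fa2h and Trf. Capitals mark ACAAAG, a core of SOX factor motifs, and the E-boxes CAGCTG and CAGATG, on either strand; the matches do not overlap each other. Mobp (chr9:120149492-120149741, plus strand) and Cnp (chr11:100574689-100574938, plus strand) are shown from the myelin genes. Pdgfra (chr5:75152001-75152250, plus strand) and Lhfpl3 (chr5:22745804-22746053, plus strand) are shown from the precursor genes. Each holds a marked motif, unlike the windows of mature Ermn, Mal, Cldn11, Ugt8a and Mog and of precursor Matn4, Cspg4 and Vcan.
Mobp: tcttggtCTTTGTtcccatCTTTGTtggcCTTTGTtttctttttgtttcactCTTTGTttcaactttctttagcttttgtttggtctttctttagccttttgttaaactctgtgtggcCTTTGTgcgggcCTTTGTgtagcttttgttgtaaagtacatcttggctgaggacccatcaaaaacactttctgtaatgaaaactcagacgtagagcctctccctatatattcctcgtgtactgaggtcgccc
Cnp: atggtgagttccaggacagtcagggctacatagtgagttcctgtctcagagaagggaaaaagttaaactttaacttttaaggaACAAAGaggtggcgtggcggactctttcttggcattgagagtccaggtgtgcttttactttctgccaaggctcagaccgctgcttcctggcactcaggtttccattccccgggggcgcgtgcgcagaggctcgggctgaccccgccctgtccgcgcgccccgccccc
Pdgfra: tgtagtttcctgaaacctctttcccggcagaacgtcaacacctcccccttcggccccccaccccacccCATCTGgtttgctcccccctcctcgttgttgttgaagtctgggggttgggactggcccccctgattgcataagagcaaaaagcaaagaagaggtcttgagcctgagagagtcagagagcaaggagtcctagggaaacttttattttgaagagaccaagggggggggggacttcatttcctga
Lhfpl3: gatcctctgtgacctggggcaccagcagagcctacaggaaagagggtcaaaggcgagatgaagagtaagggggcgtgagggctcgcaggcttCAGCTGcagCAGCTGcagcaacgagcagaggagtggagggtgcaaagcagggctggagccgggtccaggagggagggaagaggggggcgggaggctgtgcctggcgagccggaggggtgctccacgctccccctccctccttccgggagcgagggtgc
Mobp held 6 copies of ACAAAG, all on the minus strand as CTTTGT, and Cnp held 1. The hexamer was present in 5 of the 13 windows of mature genes, namely in Mobp, Cnp, Opalin and both of the overlapping Mag windows, and in 0 of 6 windows of precursor genes. Over all 32851 windows of this length it was present in 16.5%. The overlapping Mag windows hold the same copy. Counted by gene, the hexamer was in 4 of 11 mature and 0 of 5 precursor genes, where 18.6% of all genes held it. CAGCTG was found in 13.0% and CAGATG in 14.4% of all windows. Each of these E-boxes was in 2 of 13 mature windows and in 1 of 6 precursor windows. The mature windows were those of Hapln2, Aspa and Opalin. Lhfpl3 held 2 copies of CAGCTG, and Pdgfra held 1 copy of CAGATG on its minus strand, read here as CATCTG. These are matches of letters only.

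**Figure D1:**
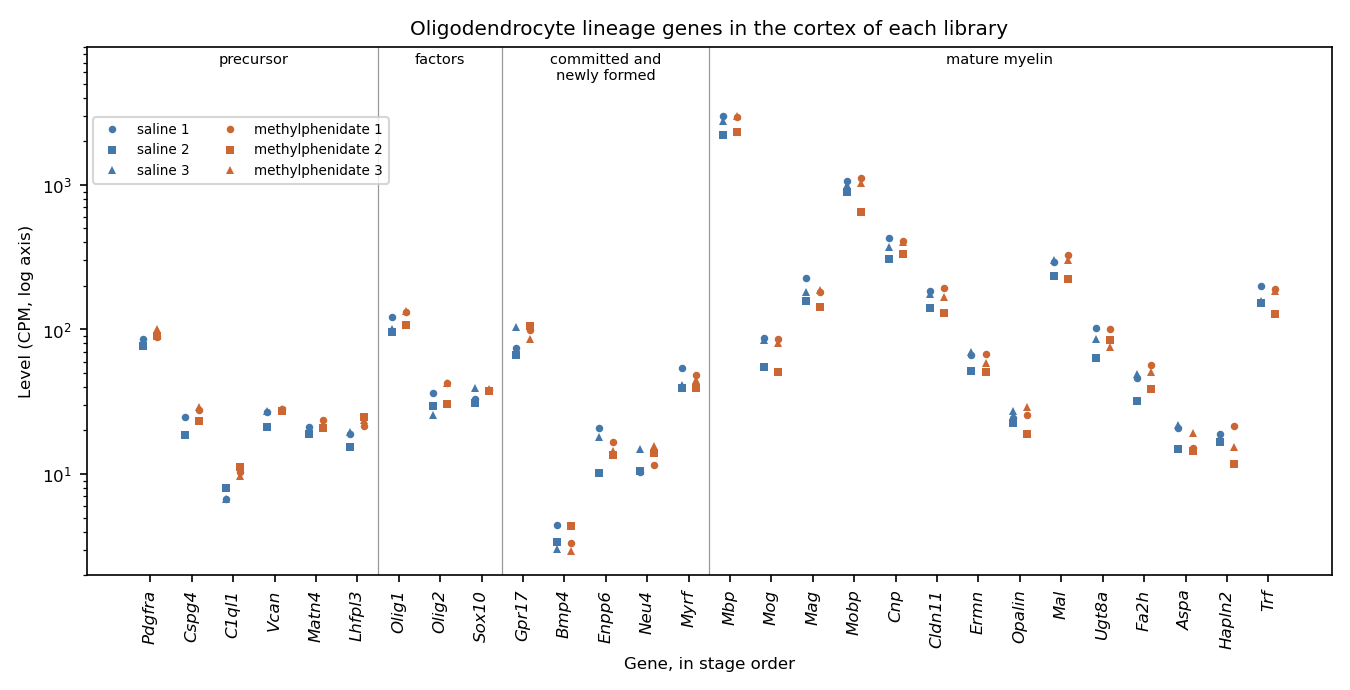
Level of each gene (CPM, log axis) in each of the 6 libraries, saline in blue and methylphenidate in orange, with 1 point per library and genes in stage order; values are not per length, so heights are not compared between genes. Precursor points lie higher in orange, with overlap in Cspg4 and Matn4, while mature genes are lowest in the squares (replicate 2) of both lineages except for Ugt8a in methylphenidate.

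None of the 28 genes passed the threshold between the lineages (edgeR quasi-likelihood test, Benjamini-Hochberg adjusted over all 18327 genes; smallest adjusted p = 0.409). Of all genes tested, 5 passed, which is 0.0273% of those tested. At an unadjusted p under 0.05 there were 4 of the 28 genes, all 4 of them precursor genes, where 7.51% of all tested genes were under that value. The lineages did not overlap in 4 of the 28 genes, all higher with methylphenidate, where 6.97% of all tested genes were so higher and 6.51% so lower. DESeq2 and limma-voom likewise called 0 of the 28.

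All 6 precursor genes had a log2 fold change (methylphenidate minus saline) above 0, from 0.16 to 0.54, with a median of 0.29. Over all tested genes the median was 0.00 and 50.3% lay above 0. These are fitted differences, none of which passed. C1ql1, which encodes a secreted C1q-like protein of precursor cells, was at 6.75, 8.06 and 6.75 CPM with saline and at 10.4, 11.2 and 9.69 CPM with methylphenidate. Every methylphenidate library was above every saline library, with a log2 fold change of 0.54 (SE 0.15, adjusted p by edgeR = 0.409). Pdgfra, the receptor through which PDGF drives precursor division, was at 85.3, 76.4 and 80.2 CPM on the saline side and 88.3, 90.7 and 101 CPM on the methylphenidate side. Its groups did not overlap either, and the difference was smaller, at 0.21 (SE 0.08, adjusted p by edgeR = 0.591). Lhfpl3, a tetraspan membrane protein gene of precursors, read 19.1, 15.4 and 19.6 CPM against 21.4, 24.8 and 23.6 CPM. Again the groups stood apart, with saline replicate 2 lowest (log2 fold change 0.37, SE 0.12, adjusted p by edgeR = 0.539).

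Cspg4, the NG2 proteoglycan, was at 24.6, 18.7 and 18.5 CPM on the saline side and 27.7, 23.4 and 29.0 CPM on the methylphenidate side. Here saline replicate 1 lay above methylphenidate replicate 2, so the groups overlapped (log2 fold change 0.37, SE 0.14, adjusted p by edgeR = 0.593). Vcan, a large chondroitin sulphate proteoglycan of the matrix, had 26.7, 21.2 and 27.1 CPM in the saline lineage and 28.03, 27.2 and 28.3 CPM in methylphenidate libraries. The groups nearly touched, at saline replicate 3 and methylphenidate replicate 2 (log2 fold change 0.16, SE 0.11, adjusted p by edgeR = 0.802). Without saline replicate 2, its lowest library, the fitted value was 0.05. Matn4, a matrilin of the extracellular matrix, had 21.1, 19.0 and 19.5 CPM against 23.5, 20.7 and 22.2 CPM, with overlap at saline replicate 1 (log2 fold change 0.16, SE 0.10, adjusted p by edgeR = 0.773).

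Pericytes also make Cspg4 and fibroblasts also make Pdgfra. The 11 pericyte and mural markers summed to 224 to 264 CPM in saline libraries and 222 to 228 CPM in methylphenidate libraries, with 8 of 11 lower and 3 higher in the fit and a median log2 fold change of -0.05. The 11 fibroblast and meningeal markers summed to 790 to 1062 CPM and 650 to 1030 CPM, with a median of -0.04. The striatal list, by contrast, was above 0 in all 12 of its genes, with a median of 1.07 and a highest value of 3.02. None of the 12 passed the threshold. At an unadjusted p under 0.05 (edgeR quasi-likelihood test) there were 10 of the 12, where 7.51% of all tested genes were under that value. Without overlap, 6 were higher and 0 lower, where 6.97% of all tested genes were so higher and 6.51% so lower. With each library's striatal mean added to the model as a covariate, chosen after the data were seen, the precursor median was 0.06. Since the lineages do not overlap in that mean, its part and that of lineage cannot be told apart here. With each library's mature myelin mean as the covariate instead, the precursor median was 0.30.

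Precursor genes outside the 28, from a list of 14 that all passed the filter, had a median log2 fold change of 0.17, with 9 above 0 and 5 below; 0 of 14 passed the threshold and 6 of 14 were higher without overlap, where 6.97% of all tested genes were. The smallest p belonged to Cacng4, an AMPA receptor auxiliary subunit, which was at 30.6 ± 2.7 CPM with saline and 39.6 ± 4.8 CPM with methylphenidate (SD, n = 3; log2 fold change 0.37, SE 0.11, adjusted p by edgeR = 0.486). Next was Pcdh15, a protocadherin, with 22.4 ± 4.7 and 30.4 ± 2.4 CPM (SD, n = 3; log2 fold change 0.44, SE 0.15, adjusted p by edgeR = 0.555). Fitted values of division genes were mostly of the other sign. Of 12 cell cycle genes, 10 had a log2 fold change below 0 and 2 above, with a median of -0.28 and 0 past the threshold. Without overlap, 2 were lower and 0 higher, where 6.51% of all tested genes were so lower and 6.97% so higher. Their centred means overlapped, at 0.29, -0.29 and 0.44 with saline and 0.16, -0.42 and -0.18 with methylphenidate. Their summed level was only 10.6 to 17.7 CPM in saline libraries and 10.8 to 14.6 CPM in methylphenidate libraries.

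**Figure D2:**
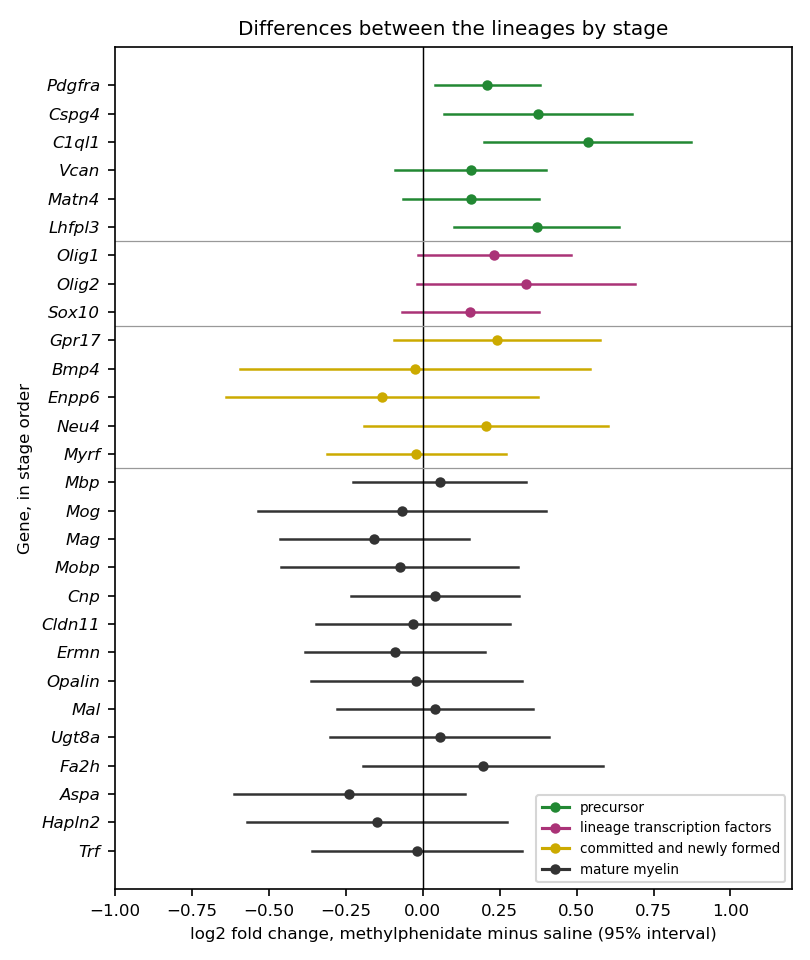
Log2 fold change of each gene, methylphenidate minus saline, with its 95% interval from the edgeR fit, unadjusted for the number of genes, and genes in stage order from the top. The intervals of Pdgfra, Cspg4, C1ql1 and Lhfpl3 lie above 0, and those of the other 24 genes include 0.

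The 3 transcription factors of the lineage also had fitted values above 0, with a median of 0.23 and none past the threshold. Olig1, a basic helix-loop-helix factor, was at 122, 96.4 and 101 CPM with saline and 133, 107 and 135 CPM with methylphenidate. Methylphenidate replicate 2 lay inside the saline range, and the log2 fold change was 0.23 (SE 0.11, adjusted p by edgeR = 0.681). Its neighbour Olig2, needed to specify the lineage, was at 36.5, 29.7 and 25.7 CPM against 42.8, 30.7 and 42.8 CPM. The same replicate 2 was low among the methylphenidate libraries (log2 fold change 0.34, SE 0.16, adjusted p by edgeR = 0.675). Sox10, which activates myelin genes together with Myrf, was at 33.1, 31.0 and 39.0 CPM and 38.3, 37.8 and 38.8 CPM, so that saline replicate 3 was the highest of all (log2 fold change 0.16, SE 0.10, adjusted p by edgeR = 0.775). With the striatal covariate the median of the 3 factors turned to -0.18.

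Committed and newly formed cells gave no common direction, with 2 genes above 0, 3 below and a median of -0.02, which went from -0.08 without saline replicate 2 to 0.13 without saline replicate 1. Gpr17, a G protein-coupled receptor that marks the committed stage and holds back maturation, was at 74.9, 66.8 and 104 CPM in the saline lineage and 98.6, 106 and 85.7 CPM in methylphenidate libraries. The saline libraries spanned nearly the whole range of the others (log2 fold change 0.24, SE 0.15, adjusted p by edgeR = 0.769). Leaving out saline replicate 2 gave 0.11, and leaving out saline replicate 3 gave 0.45. Enpp6, a choline phosphodiesterase of newly formed oligodendrocytes, had 20.8, 10.2 and 18.0 CPM in the saline libraries, the widest range of the 28 genes, and 16.8, 13.5 and 14.4 CPM in the others. Its highest library had 2.04 times the level of its lowest, both of them in the saline lineage (log2 fold change -0.13, SE 0.23, adjusted p by edgeR = 0.938). Neu4, a sialidase gene, read 10.3, 10.6 and 14.8 CPM against 11.5, 13.998 and 15.6 CPM (log2 fold change 0.21, SE 0.18, adjusted p by edgeR = 0.856).

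Myrf, the membrane-bound factor that turns on myelin genes, was at 53.7, 39.2 and 41.0 CPM on the saline side and 48.1, 39.1 and 44.9 CPM on the methylphenidate side. The means of the lineages were 44.7 ± 7.9 and 44.0 ± 4.5 CPM (SD, n = 3; log2 fold change -0.02, 95% interval -0.31 to 0.27, adjusted p by edgeR = 0.984). Bmp4, a secreted factor that other brain cells make too, had the lowest counts of the 28 genes, 71 to 125 per library, and a log2 fold change of -0.03 (95% interval -0.60 to 0.54, adjusted p by edgeR = 0.991). Differences within these intervals were not resolved. Among 16 further genes of this stage, 12 were above 0 and 4 below with a median of 0.05, and 0 passed. The smallest p were those of Tmem163, a zinc transporter gene at 15.2 ± 3.0 and 19.1 ± 1.4 CPM (SD, n = 3; adjusted p by edgeR = 0.654), and Kif19a, a kinesin gene at 5.38 ± 0.41 and 6.67 ± 1.10 CPM (SD, n = 3; adjusted p by edgeR = 0.761).

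Mature myelin genes did not separate by lineage but by library. Their median log2 fold change was -0.03, with 5 of 14 above 0 and 9 below, from -0.24 to 0.20, and in all 14 the groups overlapped. The median went from -0.14 without methylphenidate replicate 1 to 0.13 without methylphenidate replicate 2, and was -0.46 with the striatal covariate. Saline replicate 2 was the lowest saline library in 14 of 14 genes, and methylphenidate replicate 2 the lowest methylphenidate library in 13 of 14, the exception being Ugt8a. Over all tested genes these libraries were lowest in their lineage in 33.2% and 32.9%, and both at once in 13.0%. Summed over the 14 genes, the level was 4355 to 5776 CPM in saline libraries and 4191 to 5739 CPM in methylphenidate libraries.

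Proteins of compact myelin come first. Mbp, the basic protein that holds the cytoplasmic faces of the sheath together, was at 2999, 2218 and 2749 CPM with saline and 2944, 2318 and 3013 CPM with methylphenidate. Replicate 2 was lowest on both sides, and the log2 fold change was 0.05 (SE 0.13, 95% interval -0.23 to 0.34, adjusted p by edgeR = 0.951). Mobp, a small basic protein of the sheath whose start region is shown above, was at 1071, 889 and 997 CPM in the saline lineage and 1124, 647 and 1036 CPM in methylphenidate libraries. Its methylphenidate replicate 2 was low against every other library (log2 fold change -0.07, SE 0.17, adjusted p by edgeR = 0.951). Mal, a proteolipid of membrane sorting, had 295, 233 and 300.1 CPM against 327, 222 and 303 CPM, and Cldn11, the claudin of myelin tight junctions, had 185, 141 and 177 CPM against 193, 131 and 169 CPM. Both were lowest in replicate 2 of each lineage, and their log2 fold changes were 0.04 (SE 0.14) for Mal and -0.03 (SE 0.14) for Cldn11.

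Genes of the sheath's inner and outer layers varied likewise. Mog, a glycoprotein of the outermost myelin surface, was at 87.97, 55.3 and 84.2 CPM with saline and 86.0, 50.9 and 80.4 CPM with methylphenidate. The values of the lineages thus lay almost side by side, with 1 low library in each (log2 fold change -0.07, SE 0.21, adjusted p by edgeR = 0.967). Mag, the adhesion protein facing the axon, was at 227, 158 and 182 CPM and 180.3, 142 and 186 CPM (log2 fold change -0.16, SE 0.14, adjusted p by edgeR = 0.859). Cnp, an enzyme of the cytoplasmic channels, had 430, 305 and 374 CPM against 406, 332 and 401 CPM (log2 fold change 0.04, SE 0.12, adjusted p by edgeR = 0.967). Ermn, a cytoskeletal protein of late oligodendrocytes, and Opalin, a transmembrane glycoprotein of central myelin, were at a log2 fold change of -0.09 (SE 0.13) for Ermn and -0.02 (SE 0.15) for Opalin. Hapln2, a link protein of the nodal matrix, ranged from 11.8 CPM in methylphenidate replicate 2 to 21.4 CPM in methylphenidate replicate 1, the widest span of the mature genes at 1.81-fold (log2 fold change -0.15, SE 0.19, adjusted p by edgeR = 0.902).

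Enzymes of myelin lipid and metabolism, and an iron carrier, completed the stage. Ugt8a, which makes galactosylceramide, was at 103, 63.7 and 85.3 CPM on the saline side and 100.4, 85.1 and 75.8 CPM on the methylphenidate side. Here methylphenidate replicate 3 was the lowest of its lineage (log2 fold change 0.05, SE 0.16, adjusted p by edgeR = 0.964). Fa2h, which hydroxylates the fatty acids of those lipids, had the highest fitted value of the stage, at 46.4, 32.2 and 49.3 CPM against 56.7, 38.8 and 51.1 CPM (log2 fold change 0.20, SE 0.17, adjusted p by edgeR = 0.859). Aspa, which splits N-acetylaspartate, had the lowest, at 20.7, 14.8 and 21.9 CPM against 15.1, 14.5 and 19.1 CPM (log2 fold change -0.24, SE 0.17, adjusted p by edgeR = 0.801). Trf, the iron carrier transferrin, was at 201, 153 and 158 CPM against 192, 128 and 186 CPM (log2 fold change -0.02, SE 0.15, adjusted p by edgeR = 0.987). The choroid plexus also makes transferrin, and its 11 markers summed to 46.6, 703 and 440.2 CPM in the saline lineage and 527, 212 and 28.2 CPM in methylphenidate libraries. Its part in the level of Trf was not tested.

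**Figure D3:**
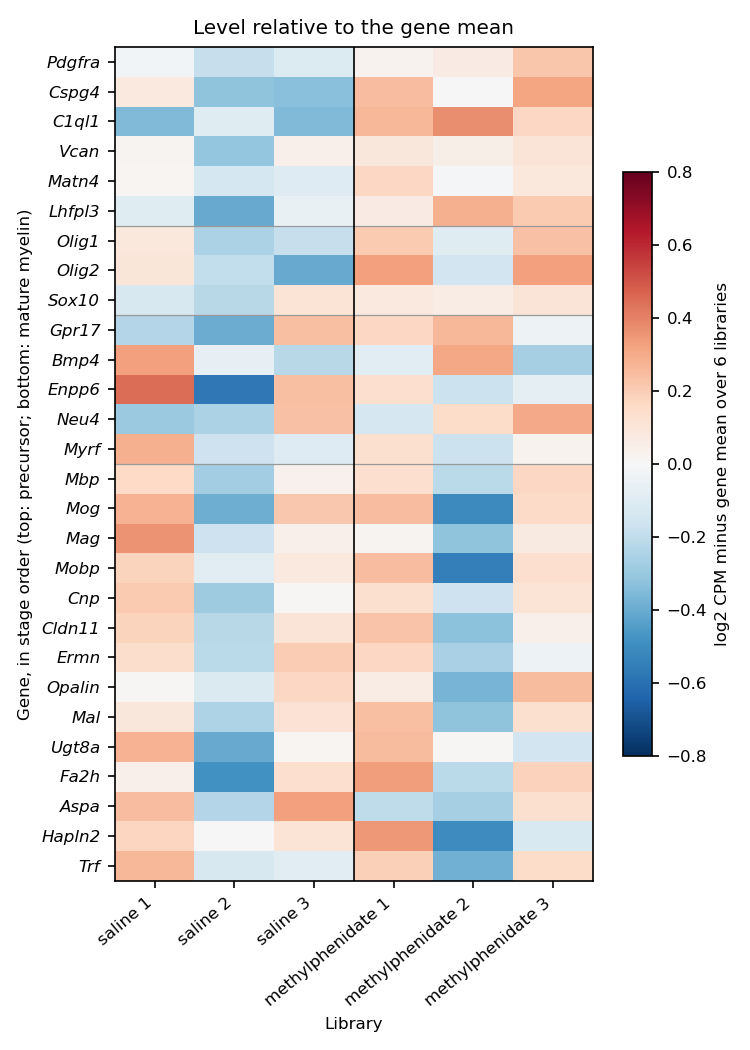
Log2 CPM minus the gene's mean over the 6 libraries, with genes as rows in stage order and libraries as columns, red above and blue below the mean. Among the mature genes the columns of saline replicate 2 and methylphenidate replicate 2 are mostly blue, and among the precursor genes blue lies mostly on the saline side.

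Replicate 2 of each lineage also stood out outside the 14 genes. A further list held 48 genes given for mature oligodendrocytes, which were not checked for expression in neurons. Of these, 31 were lowest of the saline libraries in replicate 2, 37 lowest of the methylphenidate libraries in replicate 2, and 26 both. Over all tested genes the shares were 33.2%, 32.9% and 13.0%. In the further list of 16 committed and newly formed genes the counts were 9, 8 and 6. In that of 14 precursor genes they were 4, 3 and 2. The median log2 fold change of the 48 genes was -0.03, with 21 above 0, 27 below and 0 past the threshold. The smallest p belonged to Opcml, a cell adhesion gene at 237 ± 13 and 201 ± 18 CPM, and Apod, a lipocalin gene at 90.4 ± 6.7 and 79.0 ± 5.2 CPM (SD, 3 mice each; adjusted p by edgeR of 0.553 and 0.630). Mitochondrially encoded genes took 6.64 and 6.44% of the counts of these replicates, the lowest of each lineage, where the other libraries had 6.80 to 8.19%. The 10 astrocyte markers summed to 5080 and 5108 CPM in them and to 5501 to 5945 CPM in the others. The part of these differences in the myelin levels was not tested. The peripheral myelin list of 7 genes summed to 148 to 169 CPM with saline and 136 to 157 CPM with methylphenidate, most of it from Drp2, and Dhh, a signal made by Schwann cells, had at most 8 counts in any library; both are named after their values were seen.

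Set side by side, the stages differed in how their libraries spread. The mean log2 CPM of the 6 precursor genes, centred on each gene, was -0.06, -0.24 and -0.15 with saline and 0.14, 0.13 and 0.18 with methylphenidate. For the 14 mature genes it was 0.19, -0.23 and 0.10 against 0.17, -0.31 and 0.09. Precursor means thus separated the lineages, by 0.30 between the group means. Mature means did not, with a difference of -0.04 beside ranges of 0.42 and 0.48 within the lineages. Such separation was not particular to precursor genes. Means of the striatal list and of lists of 9 microglia and 7 ependyma markers were also higher with methylphenidate without overlap. Those of the general neuronal and cortical excitatory lists were lower without overlap, and those of the other cell type lists overlapped. With the striatal mean as covariate, the precursor median was 0.06. The committed genes had 0.11, -0.29 and 0.08 against 0.04, 0.08 and -0.01, with saline replicate 2 alone low.

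Mature minus precursor means were 0.25, 0.01 and 0.26 with saline and 0.03, -0.44 and -0.10 with methylphenidate. The group means were 0.17 ± 0.14 and -0.17 ± 0.24 (SD, n = 3), a difference of -0.34 that was -0.21 without methylphenidate replicate 2 and -0.44 without methylphenidate replicate 1, and methylphenidate replicate 1 lay just above saline replicate 2. Committed minus precursor means were 0.17, -0.05 and 0.23 against -0.10, -0.05 and -0.19, with group means of 0.12 ± 0.15 and -0.12 ± 0.07 (SD, n = 3). Replicate 2 of each lineage met at -0.05. These scores are means over chosen genes and carry no test. With both replicates 2 left out, a choice made after the data were seen, the precursor median was 0.20, the mature median 0.00 and the mature minus precursor difference -0.29, with 0 of the 28 genes past the threshold.

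**Figure D4:**
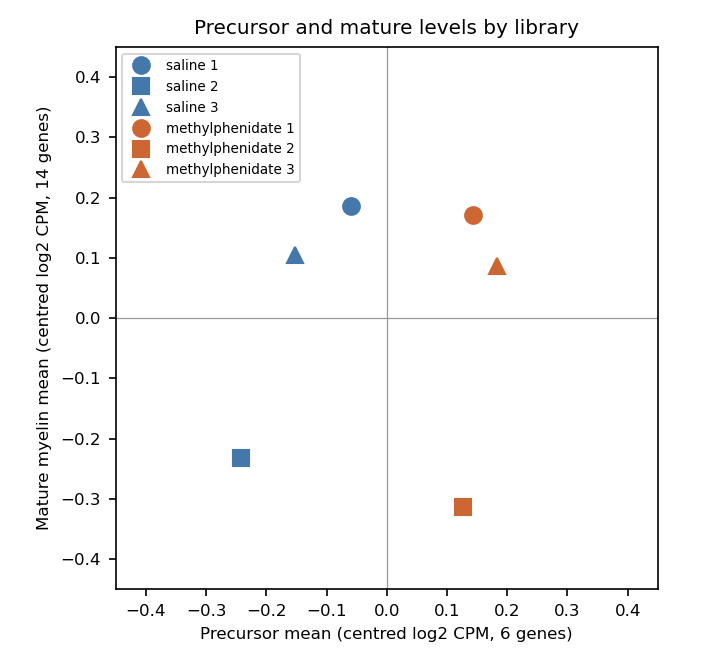
Mean centred log2 CPM of the 6 precursor genes (horizontal axis) against that of the 14 mature myelin genes (vertical axis), with 1 point per library. The lineages part along the horizontal axis, from -0.24 to -0.06 for saline and 0.13 to 0.18 for methylphenidate, while replicate 2 of each lineage lies low on the vertical axis. Means of some other lists, such as the striatal list, also do not overlap between the lineages.

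Variation between mice of a lineage was greatest in the committed genes with saline and in the mature genes with methylphenidate. The median coefficient of variation was 15.3% with saline and 18.9% with methylphenidate for the mature genes, and 21.5% and 11.2% for the committed genes. For the precursor genes it was 11.6% and 7.16%, beside 9.54% and 9.62% over the 15825 tested genes with a mean of 1 CPM or more. The median SE of a log2 fold change was 0.15 over the 28 genes and 0.15 over all tested genes.

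Levels of different genes were compared per kilobase of exon, as the saline mean in CPM per kb. Mbp was highest at 314, followed by Mobp at 144, Cnp at 102, Mal at 99.4 and Cldn11 at 89.6. The highest gene outside the mature list was Olig1 at 49.2, close to Mag at 46.5 and Mog at 44.5. Precursor genes were lower than these, from 1.73 for Cspg4 and Vcan to 8.04 for Pdgfra, and Bmp4 was lowest in this mean at 1.61. Cspg4 lay above Bmp4 in 6 of 6 libraries, but Vcan in only 3 of 6. The mature genes Aspa at 3.21 and Hapln2 at 7.55 lay within the precursor range of saline means, and the other mature genes above it. Of these, Opalin at 8.41 lay above Pdgfra in only 2 of 6 libraries. In the methylphenidate means Opalin was below Pdgfra, at 8.30 against 9.31. Cldn11 lay below both Cnp and Mal in 6 of 6 libraries, while Cnp lay above Mal in 3 of 6. Exon lengths came from GENCODE M21, which may differ from the gene models counted. In that annotation 10 of the 28 genes share exon bases with another gene, 8 of them with one on the other strand, such as Cnp with Dnajc7 and Gpr17 with Lims2. Whether counting used strand was not given in the sources used here, so reads in such overlaps cannot be told apart. Trf shares exons with Gm20425 on the same strand, which was not analysed here.

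Signals that act on the lineage were read from lists of ligands, receptors and regulators. None of the 17 tested ligand genes passed, and 12 were above 0 and 5 below, with a median of 0.09. Wnt7b, a Wnt ligand, was at 26.8 ± 2.1 and 37.0 ± 3.4 CPM (SD, n = 3; log2 fold change 0.47, SE 0.10, adjusted p by edgeR = 0.227). Nrg1, the neuregulin that signals to ErbB receptors, was at 9.41 ± 1.05 and 11.9 ± 0.8 CPM (SD, n = 3; log2 fold change 0.34, SE 0.14, adjusted p by edgeR = 0.636).

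Of 21 receptor genes 13 were above 0 and 8 below, with a median of 0.05 and none past the threshold. Adgrg1, an adhesion receptor that keeps precursors dividing, was at 43.8 ± 4.2 and 56.0 ± 6.5 CPM (SD, n = 3; adjusted p by edgeR = 0.494). Thra, the thyroid hormone receptor alpha, was at 586 ± 19 and 681 ± 59 CPM (SD, n = 3; adjusted p by edgeR = 0.555). Regulators numbered 26, with 12 above 0 and 14 below, a median of -0.02 and none past the threshold. Klf9, a thyroid hormone-induced factor, was at 290 ± 36 and 243 ± 7 CPM (SD, n = 3; adjusted p by edgeR = 0.563), and Myt1, a zinc finger factor of the lineage, at 9.01 ± 0.39 and 11.6 ± 0.4 CPM (SD, n = 3; adjusted p by edgeR = 0.569).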

How the data were processed

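Poly(A) libraries were made from cerebral cortex with a directional kit, per the labels. Per the submitters' processing notes, bcl2fastq 2.19, fastp 0.23.4, HISAT2 2.2.1, StringTie 2.2.1 and GRCm39 were used, without their roles, the annotation or the strand setting. The authors deposited raw whole-number counts, with a row per Ensembl gene and a column per library. Groups came from the sample titles. Nothing ties mice to litters or sires, so p-values reflect the spread among these mice, which may be partly technical.

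The counts were tested with edgeR 4.0.16 in R 4.3.3 (filterByExpr at defaults, TMM, estimateDisp, two-sided quasi-likelihood test on group alone, Benjamini-Hochberg over all tested genes, threshold 0.05). SE is the log2 fold change over the root of F. Intervals are 95% and use the degrees of freedom of the fit. Stage means used log2 CPM with a prior count of 2. The pipeline was tested on simulated data. Alternatives included DESeq2 1.42.0 and limma 3.58.1 (voom). A count of 0 allows up to 3 counts, or 0.106 to 0.124 CPM, for counting error only. Chi-square per degree of freedom between libraries of a lineage was 13.0 to 19.9, so none was a duplicate.

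The members and lists were chosen with earlier results of these data known. Genes of the further oligodendrocyte lists were not checked for expression in other cell types. All 28 members are named; of other oligodendrocyte and signalling lists, any gene past the threshold and otherwise the 2 of smallest p, and of other cell types only sums, counts and medians. The symbols Pla2g16, Sept4, Qk and Pmp2 of these lists matched no row. Sept4 was taken under its other symbol, Septin4, and Pla2g16, Qk and Pmp2 were not analysed here. Some genes of these lists are not reported here by name.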

Additional observations from a re-analysis of the deposited data

How the results depend on the processing

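None of the 28 genes passed the threshold under any scaling, filter, tool, block or left-out library tried. The count over the whole table was 5, and it was 10 with total counts, 3 without a filter, 2 with a replicate block, 152 with DESeq2, 11 at a threshold of 0.1, 2 with the striatal covariate, and 2 to 26 without 1 library (2 without methylphenidate replicate 3, 26 without methylphenidate replicate 1). Over all tested genes, same-numbered libraries of the lineages did not deviate together (correlations -0.04, 0.09 and -0.02), so the numbers were not taken to pair samples. In the mature genes they did in part, with both replicates 2 lowest in 13 of 14. With the replicate block the SE of Mog was 0.065 instead of 0.21 and that of Mbp 0.059 instead of 0.13. For Pdgfra it was 0.075 instead of 0.076. Whether the numbers pair the mice was not settled by these values. The precursor median was 0.22 to 0.33 without 1 library, 0.20 without both replicates 2 and 0.062 with the striatal covariate, which also gave -0.18 for the factors and -0.46 for the mature genes. Without 1 library the mature median was -0.14 to 0.13 and the committed median -0.076 to 0.13. The mature minus precursor difference was -0.44 to -0.21 without 1 library, and from summed CPM the committed minus precursor difference was -0.11. Leaving out both replicates 2, both covariates and the committed difference from summed CPM were chosen after seeing the data. The causes were not tested, except that leaving out libraries reduces the samples.

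Fitted values near 0 changed sign without 1 library, with ranges of Bmp4 -0.21 to 0.15, Enpp6 -0.38 to 0.079, Myrf -0.11 to 0.13, Mbp -0.059 to 0.17, Mog -0.25 to 0.13, Mobp -0.23 to 0.13, Cnp -0.082 to 0.16, Cldn11 -0.16 to 0.11, Ermn -0.21 to 0.010, Opalin -0.17 to 0.14, Mal -0.075 to 0.19, Ugt8a -0.11 to 0.22, Hapln2 -0.40 to 0.037 and Trf -0.12 to 0.14. Values that kept their sign but moved by over 1.5 times without 1 library had ranges of Vcan 0.049 to 0.22, Sox10 0.086 to 0.26, Gpr17 0.11 to 0.45, Neu4 0.10 to 0.40, Mag -0.27 to -0.0059, Fa2h 0.030 to 0.34 and Aspa -0.39 to -0.13. Signs also changed without both replicates 2 (Mobp 0.063, Opalin 0.072, Ugt8a -0.093 and Trf 0.071), with the striatal covariate (Cspg4 -0.071, Matn4 -0.0026, Olig1 -0.18, Olig2 -0.27, Bmp4 0.12, Mbp -0.36, Cnp -0.33, Mal -0.39, Ugt8a -0.10 and Fa2h -0.19) and with the mature covariate (Myrf 0.0092). The other settings changed no member's sign.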
